A study of Rattus norvegicus with 8 samples.

Results

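The receptors that bind neuropeptide Y (NPY), galanin, vasoactive intestinal peptide (VIP) and pituitary adenylate cyclase-activating polypeptide (PACAP), with the peptidase gene *Dpp4*, were measured by RNA sequencing of right stellate ganglia from 16 week old rats. The 10 genes were chosen by name, as 10 RefSeq transcript records of the 18314 in the deposited tables, and all 10 were found. They are 4 NPY receptor genes, *Npy1r* (NM_001113357), *Npy2r* (NM_023968), *Npy4r* (NM_031581) and *Npy5r* (NM_012869), 2 galanin receptor genes, *Galr1* (NM_012958) and *Galr2* (NM_019172), 3 VIP and PACAP receptor genes, *Vipr1* (NM_012685), *Vipr2* (NM_017238) and *Adcyap1r1* (NM_133511), and *Dpp4* (NM_012789). The study compared 4 spontaneously hypertensive rats (SHR), an inbred strain that develops high blood pressure, with 4 Wistar rats, an outbred strain used as the normotensive control. The labels name no treatment and no engineered allele for either group, and each library came from the cleaned right ganglion of 1 male rat. The 2 groups differ in genetic background as well as in blood pressure, and these cannot be told apart here.

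The stellate ganglion is a sympathetic ganglion at the base of the neck whose neurons send axons to the heart. Its neurons release noradrenaline together with NPY, and some also make galanin, VIP or PACAP. NPY and galanin receptors signal mainly through inhibitory G proteins, although the galanin receptor encoded by *Galr2* also couples to the pathway that releases calcium from stores, whereas the VIP and PACAP receptors raise cyclic AMP. Dipeptidyl peptidase 4, the product of *Dpp4*, removes a short N-terminal fragment from NPY and several related peptides and so changes which receptors they can activate.

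Total estimated counts ran from 25820299 to 35509074 per rat, and no library repeated another of the same strain. Markers of sympathetic neurons were abundant in every library, with a summed level of 7934 to 11960 TPM over the 9 of 10 listed genes that had a record. *Npy* itself was the third most abundant record. Levels are given as TPM, the share of all transcripts after allowing for their length, and differences between the strains as counts normalised between libraries by the trimmed mean of M-values, here called normalised counts and scaled to a mean library of 32217816.

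RefSeq windows of 250 bases before and 50 bases after the start of the gene model, from the GRCr8 assembly, were found for all 10 genes. The windows of 3 genes are printed 5′ to 3′ on the strand of the gene, with the first 50 bases of the gene model in capitals. They are *Npy4r*, the most abundant of the 10 (chr16:9475258-9475557, minus strand), *Adcyap1r1*, the leading PACAP receptor gene (chr4:85923921-85924220, plus strand), and *Dpp4* (chr3:67452373-67452672, minus strand). *Dpp4* and the *Adcyap1r1* record among the 10 had normalised counts that did not overlap between the strains.
Npy4r: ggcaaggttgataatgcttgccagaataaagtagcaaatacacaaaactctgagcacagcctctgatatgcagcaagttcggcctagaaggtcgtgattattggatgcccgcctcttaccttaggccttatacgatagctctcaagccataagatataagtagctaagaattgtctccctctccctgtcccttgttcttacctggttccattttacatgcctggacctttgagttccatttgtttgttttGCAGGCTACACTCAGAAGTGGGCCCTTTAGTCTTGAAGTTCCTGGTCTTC
Adcyap1r1: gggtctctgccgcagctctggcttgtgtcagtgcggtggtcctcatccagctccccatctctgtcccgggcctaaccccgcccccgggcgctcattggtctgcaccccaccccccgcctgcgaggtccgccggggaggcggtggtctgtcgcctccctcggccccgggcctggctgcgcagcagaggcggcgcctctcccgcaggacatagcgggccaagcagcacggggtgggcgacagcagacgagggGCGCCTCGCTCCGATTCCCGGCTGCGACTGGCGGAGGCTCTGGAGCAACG
Dpp4: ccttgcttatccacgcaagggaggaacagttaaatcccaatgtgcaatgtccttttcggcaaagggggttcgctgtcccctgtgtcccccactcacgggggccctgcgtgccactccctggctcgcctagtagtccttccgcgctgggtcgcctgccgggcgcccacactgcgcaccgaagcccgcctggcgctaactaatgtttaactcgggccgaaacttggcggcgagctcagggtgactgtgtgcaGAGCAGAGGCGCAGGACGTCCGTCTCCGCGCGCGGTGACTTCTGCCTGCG
The *Npy4r* window was 45% G and C with 4 CpG dinucleotides, below the median of 52.3% over 27457 rat windows. In contrast, the *Adcyap1r1* window was 73.0% G and C with 29 CpG, and the *Dpp4* window was 64.0% with 27 CpG. The remaining windows ran from 40.0% in *Npy2r* to 73.3% in *Vipr1*. The letters GGGCGG or their reverse complement, a GC box, were present in 4 of the 10 windows (*Galr1*, *Vipr1*, *Vipr2* and *Adcyap1r1*) against 34.9% of all windows. TGACG or its reverse complement, the core of the binding site of cyclic AMP response element binding protein, was present in *Npy1r* and *Vipr1*, or 2 of 10, against 22% of all windows. TATAAA, read on both strands, was in none of the 10 and in 14.3% of all windows. These matches describe letters only, and for 5 of the 10 genes the window did not lie at the outermost start of the gene.

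The receptor genes covered a wide range of levels, and 1 gene carried most of the message in each family. *Npy4r* had the highest mean level, at 41.0 ± 4.29 TPM (SD, n = 8 rats), which placed it 2734th of 18314 records. *Adcyap1r1*, here and below the 1 record NM_133511 unless all 6 of its records are named, followed at 22.9 ± 4.63 TPM and *Galr2* at 14.2 ± 3.02 TPM. *Npy1r* and *Dpp4* formed a middle group at 3.98 ± 1.53 and 3.23 ± 1.80 TPM. *Npy2r* averaged 0.998 ± 0.591 TPM, and *Vipr2*, *Vipr1*, *Npy5r* and *Galr1* stood at 0.350, 0.0914, 0.0612 and 0.0395 TPM.

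**Figure D1:**
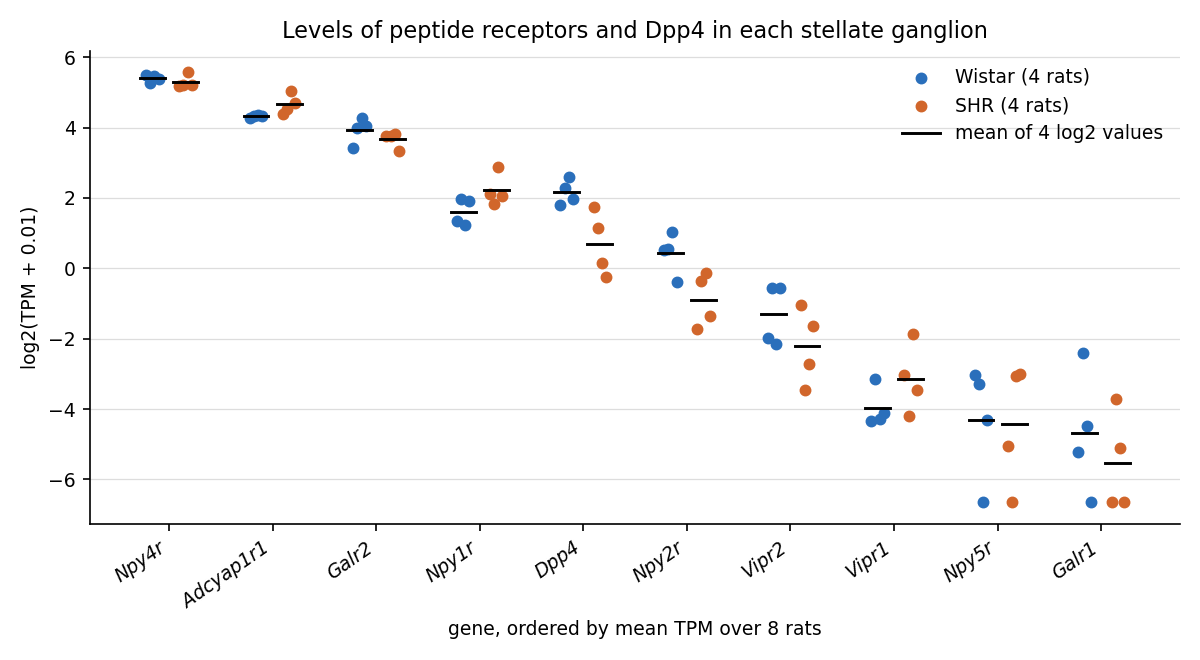
The level of each of the 10 genes as log2(TPM + 0.01), in order of mean TPM, with 1 point per rat (Wistar blue, SHR orange) and a line at the mean of 4 rats. *Npy4r*, *Adcyap1r1* and *Galr2* lie above 10 TPM in all 8 rats, and *Vipr1*, *Npy5r* and *Galr1* lie below 0.3 TPM in all 8.

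Neighbours in this order were compared within each rat by a two-sided exact sign-flip permutation test on log2(TPM + 0.01), with Benjamini-Hochberg adjustment over the 9 pairs. The smallest p for 8 rats is 0.00781. *Npy4r* exceeded *Adcyap1r1* by 1.81-fold, *Adcyap1r1* exceeded *Galr2* by 1.62-fold and *Galr2* exceeded *Npy1r* by 3.70-fold, each in 8 of 8 rats (adjusted p = 0.0176, exact permutation test). With all 6 *Adcyap1r1* records summed, a setting added after the data were seen, *Npy4r* exceeded *Adcyap1r1* by 1.34-fold, again in 8 of 8 rats (adjusted p = 0.0176, exact permutation test). *Npy1r* and *Dpp4* could not be ordered, with *Npy1r* the higher in 4 of 8 rats (adjusted p = 0.413, exact permutation test). *Dpp4* exceeded *Npy2r* by 3.18-fold in 8 of 8 rats (adjusted p = 0.0176, exact permutation test). *Npy2r* was above *Vipr2* in 7 of 8 rats without passing the adjusted threshold (adjusted p = 0.0586, exact permutation test). *Vipr2* was above *Vipr1* by 3.47-fold in 7 of 8 rats (adjusted p = 0.0422, exact permutation test), a call that was lost when any rat other than SHR replicate 3 was left out. The order of *Vipr1*, *Npy5r* and *Galr1* was not resolved, with adjusted p of 0.181 and 0.414 in the exact permutation test.

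Between the strains, none of the 8 genes with enough counts to test passed an adjusted p of 0.05 in edgeR's quasi-likelihood test, where 2.85% of all 13659 tested records did (158 higher and 231 lower in SHR). At an unadjusted p under 0.05 the count was 4 of 8 (*Adcyap1r1*, *Dpp4*, *Npy2r* and *Npy1r*), beside 16.8% of all tested records. DESeq2 called 1 of 8, *Dpp4*, both without an offset for transcript length (5.61% of all records called) and with it (6.03%). limma on log2(TPM + 0.1) called 0 of 8, beside 2.92% of all records. The normalised counts of the strains did not overlap for 2 of the 8, *Adcyap1r1* and *Dpp4*, which was the case for 10.6% of all tested records. The median log2 difference, SHR over Wistar, was -0.18 over the 8 genes and 0.01 over all tested records, with 3 of the 8 positive and 5 negative.

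**Figure D2:**
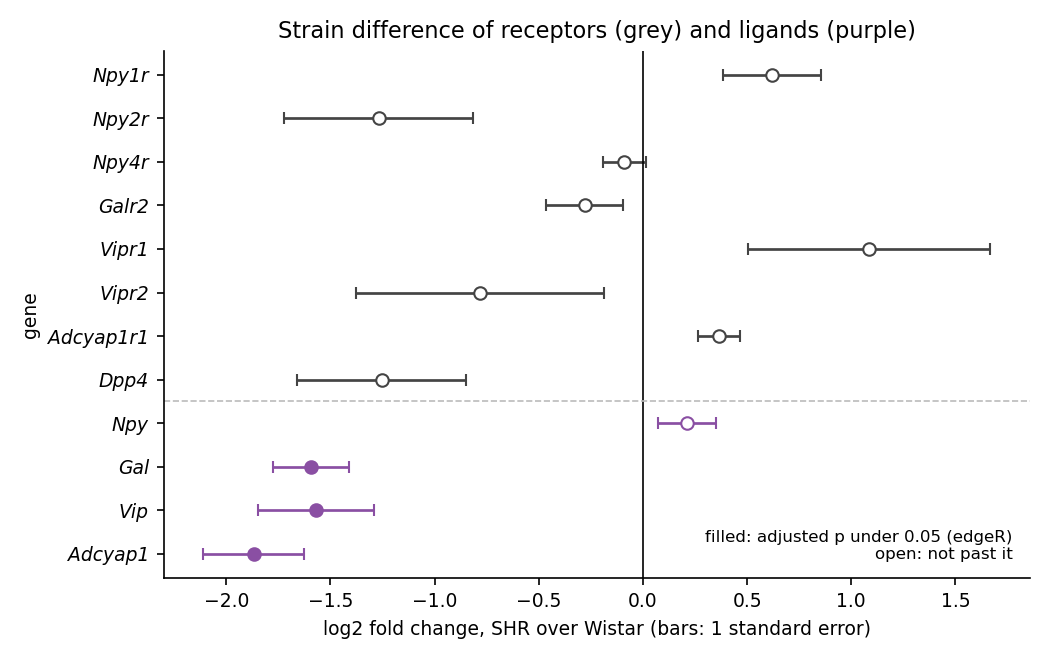
Log2 fold change (SHR over Wistar) of the 8 tested genes (grey) and of 4 ligand genes (purple), with bars of 1 standard error and filled points where edgeR gave an adjusted p under 0.05. *Adcyap1r1*, *Npy1r* and *Vipr1* lie to the positive side and the other 5 to the negative side, from -1.27 for *Npy2r* to 1.09 for *Vipr1*, all open, while *Gal*, *Vip* and *Adcyap1* are filled.

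Among the NPY receptors, *Npy4r* had a fitted level 1.06-fold higher in Wistar, whereas the 2 less abundant genes *Npy1r* and *Npy2r* had mean differences of opposite sign that did not pass the adjusted threshold. *Npy4r* encodes the receptor that prefers pancreatic polypeptide over NPY. Its level was 45.4, 38.7, 43.9 and 41.7 TPM in Wistar replicates 1 to 4 and 36.6, 36.9, 47.7 and 37.2 TPM in SHR replicates 1 to 4. The strains overlapped, since SHR replicate 3 had the highest level of all 8 rats and the other SHR rats the lowest. The mean normalised count of 1309 ± 135.5 in the 4 Wistar rats (SD) compared with 1229 ± 73.6 in the 4 SHR rats. Its log2 difference was -0.09 (SE 0.103), with an adjusted p of 0.699 (edgeR's quasi-likelihood test, Benjamini-Hochberg). The RefSeq gene model for *Npy4r* holds 1 exon as long as the record, 1257 bases, so reads from unspliced RNA or DNA would count in full, and whether any did was not tested.

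*Npy1r* encodes the receptor through which NPY constricts blood vessels. Its level was 2.51, 3.93, 2.32 and 3.73 TPM in Wistar and 4.32, 3.51, 7.31 and 4.17 TPM in SHR. SHR replicates 1, 3 and 4 stood above every Wistar rat, while SHR replicate 2 fell within the Wistar range, so the strains overlapped. The estimated counts behind these levels were 134.2 to 216.4 in Wistar and 163.2 to 386.2 in SHR. Normalised counts of 173.3 ± 43.2 and 265.9 ± 66.8 (SD, n = 4 each) gave a log2 fold change of 0.62 (SE 0.235), with an adjusted p of 0.225 in edgeR's quasi-likelihood test. The counts of *Npy1r* were not whole numbers in any rat, so part of its reads were shared out among records by the quantification.

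*Npy2r* encodes the receptor that acts on sympathetic terminals to restrain further transmitter release. It was counted from few reads, with 42, 35, 56 and 21 in Wistar and 8, 17, 23 and 11 in SHR. The lowest Wistar rat, replicate 4, had fewer reads than SHR replicate 3, and the other Wistar rats lay above every SHR rat. In TPM the levels were 1.43, 1.45, 2.02 and 0.75 in Wistar against 0.292, 0.766, 0.901 and 0.379 in SHR. Normalised counts were 2.41-fold higher in Wistar (log2 fold change -1.27, SE 0.454), and edgeR's quasi-likelihood test gave an adjusted p of 0.199. *Npy5r*, whose receptor is best known for its part in feeding, had 6, 4, 0 and 2 reads in Wistar and 1, 0, 5 and 6 in SHR. It did not pass the filter on low counts, and a difference between the strains was not detectable at this depth (exact permutation test, two-sided, p = 0.914). A count of 0 allows up to 3 reads, by counting error alone.

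*Npy4r* held 90.2 ± 1.82% of the summed NPY receptor TPM in the Wistar rats (SD, n = 4) and 88.1 ± 2.01% in the SHR rats (n = 4), a difference that did not pass an exact permutation test (p = 0.171, adjusted over 3 families 0.386). The sum itself was 47.0 ± 2.35 TPM in the Wistar and 45.1 ± 7.28 TPM in the SHR rats (exact permutation test, p = 0.657). With 4 rats against 4, the smallest p of this test is 0.0286. The difference in the sum was made smaller by SHR replicate 3, at 56.0 TPM. The other SHR rats, at 41.2 to 41.9 TPM, lay below every Wistar rat, at 44.1 to 49.5 TPM. Without SHR replicate 3 the difference grew from -1.94 to -5.57 TPM, SHR minus Wistar (exact permutation test, adjusted p = 0.0857). For 1 family alone, no smaller adjusted p can be reached.

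Galanin receptor message was almost wholly *Galr2*, and its strain difference did not pass the test. *Galr2* reached 10.6, 15.9, 19.3 and 16.4 TPM in Wistar and 13.6, 13.6, 14.2 and 10.1 TPM in SHR. The strains overlapped, with the lowest Wistar rat, replicate 1, below all but 1 SHR rat, replicate 4. The normalised count averaged 551.7 ± 117.7 over the 4 Wistar rats (SD) and 454.7 ± 72.4 over the 4 SHR rats. The log2 difference was -0.28 (SE 0.185), with an adjusted p of 0.470 by edgeR's quasi-likelihood test. *Galr1*, which encodes the inhibitory galanin receptor, was close to the limit of detection with 1, 9, 2 and 0 reads in Wistar and 0, 3, 1 and 0 in SHR. It was left out of the test across records (exact permutation test on normalised counts, p = 0.543). *Galr2* made up 99.6 ± 0.507% of the family in the Wistar rats (SD, n = 4) and 99.8 ± 0.229% in the SHR rats (n = 4).

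In the VIP and PACAP receptor family the PACAP-preferring receptor gene *Adcyap1r1* dominated, and its main record was higher in every SHR rat than in any Wistar rat. Its estimated counts were 3630, 3180, 3689 and 3609 in Wistar and 3728, 3286, 5446 and 4791 in SHR. In TPM these were 19.2, 20.2, 20.7 and 20.02 in Wistar against 21.1, 23.1, 33.1 and 25.9 in SHR. The strains did not overlap on either the TPM or the normalised count scale, although SHR replicate 1 stood close to the Wistar rats, which differed little among themselves. The mean normalised count was 3428 ± 43.2 for the 4 Wistar rats (SD) and 4416 ± 560.8 for the 4 SHR rats, 1.29-fold higher in SHR. The log2 fold change of 0.37 (SE 0.0998) had an unadjusted p of 0.00437 and an adjusted p of 0.0956 in edgeR's quasi-likelihood test. Without SHR replicate 1, the adjusted p was 0.0340 in edgeR's quasi-likelihood test, a setting in which 3.28% of all records were called. Leaving out any other rat gave adjusted p of 0.122 to 0.210, and the range over all alternatives was 0.0322 to 0.312.

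*Adcyap1r1* is the only one of the 10 genes with more than 1 record in the tables, and as transcript variants of 1 gene its 6 records compete for reads in the quantification. NM_133511 held 66.9, 72.0, 76.7 and 75.3% of the summed estimated counts of the 6 in Wistar and 83.3, 69.8, 82.7 and 70.5% in SHR. This share overlapped between the strains (exact permutation test, p = 0.4). The record NM_001270582 ranged from 6.12 estimated counts in Wistar replicate 3 to 1216 in SHR replicate 4. Over all 6 records the level was 28.8, 28.2, 27.0 and 26.6 TPM in Wistar and 25.4, 33.2, 40.1 and 36.8 TPM in SHR. On this sum SHR replicate 1 was the lowest of the 8 rats, so the strains overlapped (27.6 ± 1.03 against 33.9 ± 6.32 TPM, SD, n = 4 each, exact permutation test, p = 0.143). With the counts of each gene summed before the fit, the log2 fold change of *Adcyap1r1* was 0.30 and the adjusted p 0.201 in edgeR's quasi-likelihood test.

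**Figure D3:**
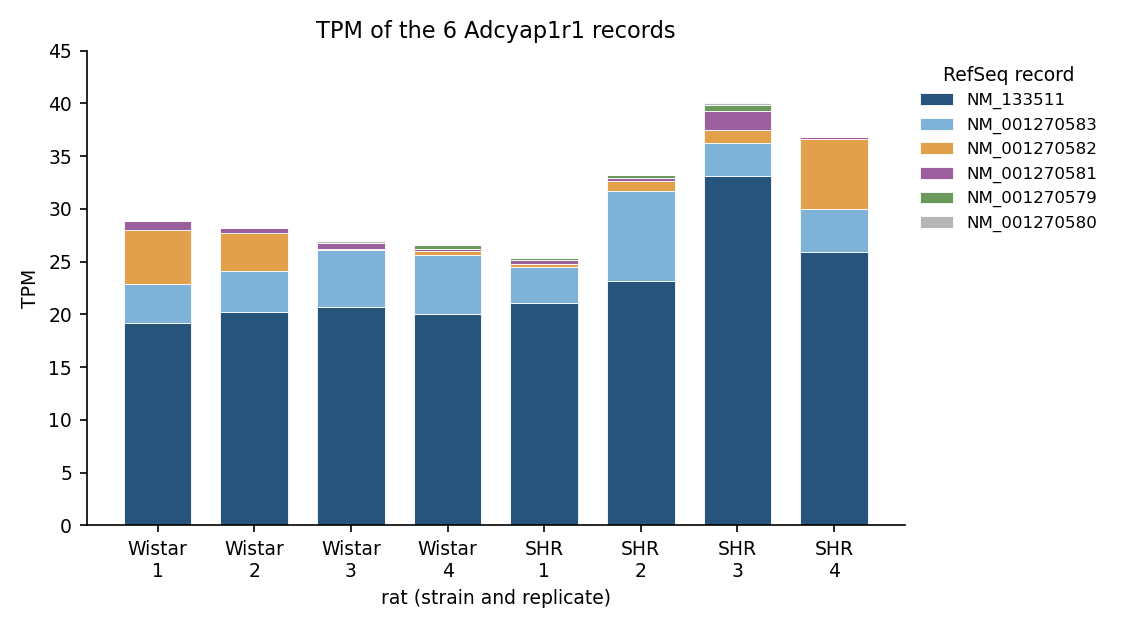
TPM of the 6 *Adcyap1r1* records in each rat, stacked. The dark NM_133511 segment is taller in the 4 SHR rats than in the 4 Wistar rats, while the whole bar of SHR replicate 1, at 25.4 TPM, is the shortest of the 8.

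The 2 receptor genes that answer to VIP and PACAP alike were scarce. *Vipr2* had 24, 54, 20 and 62 reads in Wistar and 43, 6, 12 and 30 in SHR, or 0.217 to 0.666 TPM and 0.0816 to 0.472 TPM. *Vipr1* had 6, 13, 6 and 7 estimated counts in Wistar and 16, 5.02, 35 and 12 in SHR. Both overlapped between the strains. The fitted log2 difference was -0.78 for *Vipr2* (SE 0.595, adjusted p = 0.534) and 1.09 for *Vipr1* (SE 0.582, adjusted p = 0.380), both in edgeR's quasi-likelihood test. *Adcyap1r1* held 97.6 ± 1.28% of the TPM of the 3 genes in the Wistar rats (SD, n = 4) and 98.5 ± 0.899% in the SHR rats (n = 4), a share that was not distinguishable between strains (exact permutation test, p = 0.257). The summed TPM was 20.6 ± 0.699 over the Wistar and 26.2 ± 5.23 over the SHR rats (SD, exact permutation test, p = 0.0286, the smallest the design allows, and 0.0857 adjusted over 3 families), with the single *Adcyap1r1* record supplying nearly all of it. With all 6 *Adcyap1r1* records in the sum, it was 28.2 ± 1.01 TPM over the Wistar and 34.2 ± 6.25 TPM over the SHR rats (SD, exact permutation test, p = 0.143, adjusted 0.429).

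*Dpp4* message was lower in SHR rats than in any Wistar rat, but the SHR rats varied widely and the call depended on the test. Its counts were 412, 472, 663 and 435 in Wistar and 358, 194, 110 and 97 in SHR. In TPM the levels were 3.49, 4.88, 6.05 and 3.95 in Wistar and 3.31, 2.20, 1.10 and 0.834 in SHR. SHR replicate 1 nearly reached the lowest Wistar rat, whereas SHR replicates 3 and 4 were far below. The mean normalised count was 481.1 ± 99.5 among the 4 Wistar rats (SD) and 202.2 ± 129.4 among the 4 SHR rats, 2.38-fold higher in Wistar. The log2 fold change was -1.25 (SE 0.405), with an unadjusted p of 0.0114 and an adjusted p of 0.155 in edgeR's quasi-likelihood test. The adjusted p was 0.0157 in DESeq2 without and 0.0177 with the length offset, and 0.0362 in edgeR's quasi-likelihood test without SHR replicate 1, where the log2 fold change was -1.70. The range of adjusted p over all alternatives was 0.0157 to 0.36.

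*Dpp4* is expressed by fibroblasts, endothelium and lymphocytes as well as by other cells, and in whole ganglia fewer cells of a type and less RNA per cell cannot be told apart. Markers of such cells were therefore summed in TPM. The smooth muscle and pericyte sum was 74.5, 149.0, 133.2 and 149.4 in Wistar and 150.1, 124.2, 38.6 and 50.2 in SHR. The lymphocyte sum was 10.5 to 14.0 in Wistar and 17.4, 11.4, 4.02 and 4.61 in SHR. SHR replicates 3 and 4 were the lowest of the 8 rats in both sums, as they were for *Dpp4*, but a single gene carried most of each sum. *Tagln*, an actin-binding protein gene of smooth muscle and other cells, made up 68.4% of the smooth muscle sum on average and was the only one of its 6 genes with SHR replicates 3 and 4 lowest. Without *Tagln* the sum was 24.95 and 28.4 in those rats, and SHR replicate 2 (21.3) and Wistar replicate 1 (23.4) were the lowest. *Cd4* made up 68.3% of the lymphocyte sum, and without it SHR replicate 4 (1.41) and Wistar replicate 3 (2.05) were the lowest. Of the 7 lymphocyte genes with a record, 3 (*Cd4*, *Cd3e* and *Cd8a*) had SHR replicates 3 and 4 lowest. For *Cd3e* this was 0.159 TPM in SHR replicate 4 against 0.166 TPM in Wistar replicate 3. In contrast, *Cd3d* was lowest in SHR replicate 1 (0.535 TPM) and *Cd2* in SHR replicate 2 (0.224 TPM). The macrophage sum was 29.2 and 44.9 in SHR replicates 3 and 4 against 63.7 or more in the other rats, an order seen in 4 of its 6 genes (*Cd68*, *Aif1*, *Csf1r* and *Mrc1*) and kept in the sum without *Aif1*, its most abundant gene. The fibroblast sum was 761.0 to 1314 in Wistar and 1574, 955.4, 506.1 and 761.7 in SHR. SHR replicate 3 was lowest and SHR replicate 4 just above Wistar replicate 4. *Dcn* made up 74.5% of the fibroblast sum on average. Without *Dcn* the sum was 234.7 to 387.4 in Wistar and 331.3, 195.6, 142.5 and 155.9 in SHR. SHR replicates 3 and 4 were then the lowest of the 8 rats. Of the 6 fibroblast genes, 2 (*Lum* and *Pdgfra*) had these rats lowest. The endothelial sum was 45.4 to 71.7 in Wistar and 67.0, 44.6, 48.1 and 34.9 in SHR. Red blood cell markers summed to 429 and 2299 in SHR replicates 3 and 4, against 3172 to 9633 in the other rats. All 3 of its genes, *Hba-a1*, *Hbb* and *Alas2*, had these rats lowest.

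None of these sums separated the strains. SHR replicates 1 and 2 had macrophage sums of 129.4 and 121.4, above every Wistar rat, while their *Dpp4* levels were below every Wistar rat. In a principal component analysis of the 500 most variable records, the component with 30.7% of the variance separated the strains. It placed the Wistar rats at -25.5 to -15.3 and the SHR rats at 7.88 to 30.5. The component with 20.2% of the variance placed SHR replicates 1 and 2 at -24.6 and -27.7 and SHR replicates 3 and 4 at 21.97 and 15.5. None of 69 tested records in 11 marker lists passed the adjusted threshold in edgeR's quasi-likelihood test or in limma (4 at an unadjusted p under 0.05), and DESeq2 called 1 without and 2 with the length offset, all *Mbp*, a myelin gene. The part of these cell types in the *Dpp4* and *Adcyap1r1* results was not tested.

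**Figure D4:**
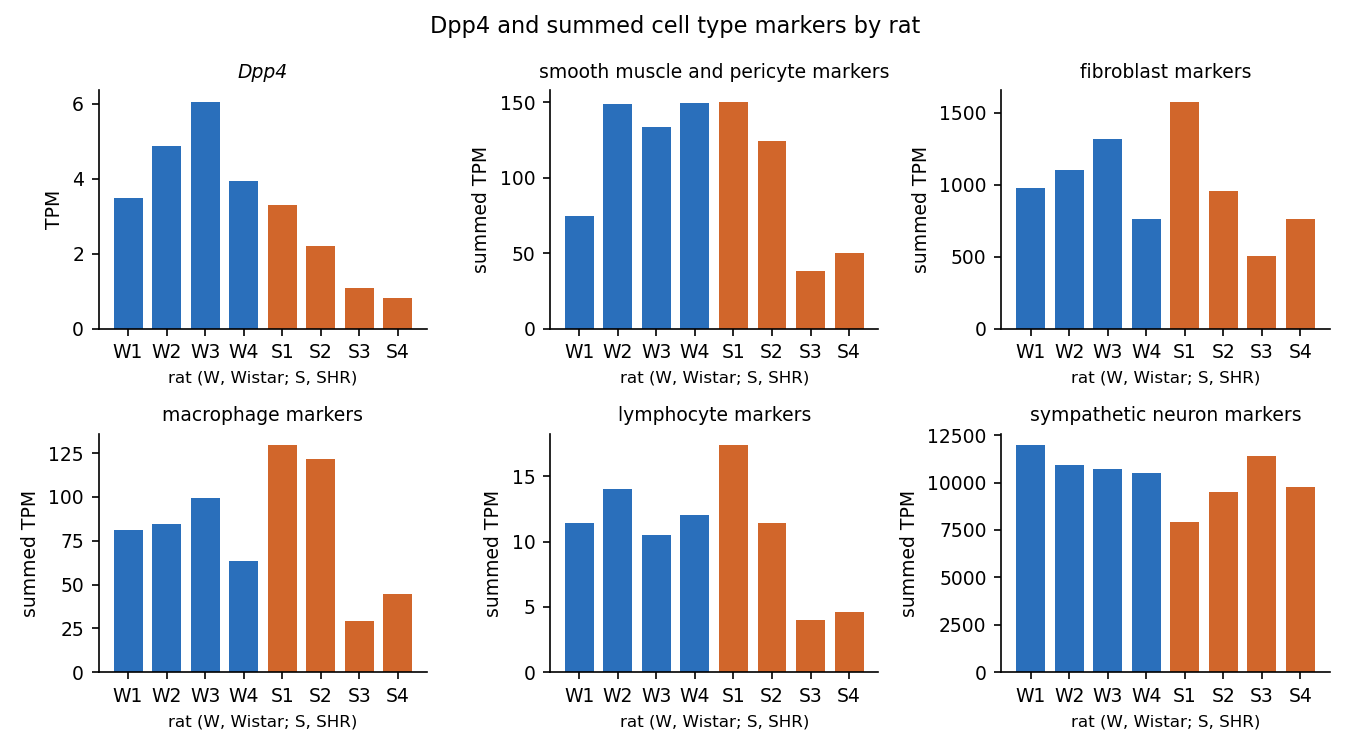
Bars of the *Dpp4* level in TPM and of the summed TPM of 5 marker lists, 1 bar per rat (Wistar blue, SHR orange). SHR replicates 3 and 4, with 1.10 and 0.834 TPM of *Dpp4*, have the lowest smooth muscle, macrophage and lymphocyte sums. Of these, the smooth muscle and lymphocyte sums are carried mostly by *Tagln* and *Cd4*. The fibroblast sum is carried mostly by *Dcn* (74.5%), and without *Dcn* it is also lowest in SHR replicates 3 and 4.

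Adipocyte markers were highest in replicate 1 of each strain, with summed TPM of 73.6 in Wistar replicate 1 and 201.7 in SHR replicate 1 against 13.4 to 38.6 in the other rats. Without these 2 rats, edgeR's quasi-likelihood test called 2 of the 8 genes, *Adcyap1r1* (adjusted p = 0.0322) and *Dpp4* (log2 fold change -1.80, adjusted p = 0.0202), in a fit that called 7.79% of all records. This setting was chosen after the data were seen.

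Of the 7 listed genes for peptides that these receptors bind, 4 had enough counts to test, and 3 of these were lower in SHR. *Gal*, which encodes galanin, was 16.7, 18.7, 13.5 and 19.2 TPM in Wistar and 5.64, 4.69, 6.77 and 5.39 TPM in SHR. It fell in SHR with a log2 fold change of -1.59 (SE 0.181, edgeR's quasi-likelihood test, adjusted p = 0.00128). *Vip* was 377.6, 226.1, 174.0 and 218.6 TPM in Wistar and 87.2, 74.8, 123.5 and 55.7 TPM in SHR, and its fall had a log2 fold change of -1.57 (SE 0.278, edgeR's quasi-likelihood test, adjusted p = 0.0143). *Adcyap1*, which encodes PACAP, was 13.9, 12.6, 6.95 and 11.1 TPM in Wistar and 2.72, 2.55, 3.88 and 3.13 TPM in SHR. It fell with a log2 fold change of -1.87 (SE 0.243, edgeR's quasi-likelihood test, adjusted p = 0.00260).

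For these 3 ligands no SHR rat overlapped a Wistar rat, which on normalised counts was the case for 10.6% of all tested records. *Npy* ranged from 14141 to 18372 TPM in Wistar and from 17444 to 21579 TPM in SHR, which overlapped (log2 fold change 0.21, SE 0.139, edgeR's quasi-likelihood test, adjusted p = 0.467). Hence 3 of the 4 tested ligand genes were called, all lower in SHR, beside 2.85% of all records. The ligand list was chosen with earlier results of these data known, so this count is a description only. The other 3 listed ligand genes did not pass the filter on low counts. Among them *Galp*, which encodes galanin-like peptide, had 1, 3, 0 and 2 reads in Wistar and 6, 5, 9 and 4 in SHR. The strains did not overlap on these few reads (exact permutation test on normalised counts, p = 0.0286, unadjusted and the smallest the design allows). *Pyy* had 5 reads or fewer in every rat, and *Ppy*, the gene of the pancreatic polypeptide that the *Npy4r* product prefers, had 2 reads in 1 rat and 0 in the others. Set side by side, *Adcyap1* was lower and the *Adcyap1r1* record higher in each SHR rat than in any Wistar rat, while *Galr2* and the VIP receptor genes overlapped. Whether ligand and receptor differences are related was not tested.

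Other genes of the same pathways were counted from lists. Of 13 tested records for related receptors, 0 passed the adjusted threshold in edgeR, DESeq2 or limma and 3 had an unadjusted p under 0.05, with a median log2 difference of -0.11. Of 11 tested peptidase records other than *Dpp4*, 0 passed in any of these tools and 1 had an unadjusted p under 0.05, with a median of 0.06. Of 23 records for G proteins and effectors, edgeR called 1, *Kcnj3*, a subunit of the potassium channel that inhibitory G proteins open. *Kcnj3* was 3.23 to 4.58 TPM in Wistar and 1.48 to 2.45 TPM in SHR and fell by 1.03 on the log2 scale (SE 0.229, edgeR's quasi-likelihood test, adjusted p = 0.0449). limma also called *Kcnj3* alone, whereas DESeq2 called *Kcnj3* and *Gnai3* without the length offset and *Gnai2* as well with it, and 6 of the 23 records had an unadjusted p under 0.05. The inhibitory G protein genes *Gnai2* and *Gnai3* had log2 differences of 0.33 and -0.40 (adjusted p = 0.0869 and 0.0677 in edgeR's quasi-likelihood test). The median of that list was 0.02.

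The records whose levels ran most nearly parallel to a member over the 8 rats were listed by Pearson's r of log2 CPM, counts scaled to library size. Each r was the highest among all tested records and takes in any strain difference and any shared property of a library, so it is a description with no test. *Npy4r* ran closest to *Tcte1* (0.972), *Adam4* (0.932) and *Zfp53* (0.914). *Galr2* ran closest to *Snx15* (0.984), *Tarbp2* (0.966) and *Casp8* (0.957). For *Adcyap1r1* the nearest were *Agrp* (0.982), *Clgn* (0.970) and *Ankrd16* (0.969). For *Dpp4* they were *Galnt18* (0.990), *Csrp1* (0.988), which encodes a LIM domain protein of smooth muscle and other cells, and *Pdlim7* (0.985), which encodes a LIM domain protein that binds actin filaments.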

How the data were processed

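Right stellate ganglia from 4 Wistar and 4 SHR rats, 1 library per rat, were grouped by the strain in the labels. The labels name a stranded mRNA kit for the libraries, whereas the study's methods name an amplification protocol for low RNA inputs and paired reads from 2 lane runs per library. The authors checked the reads with FastQC 0.11.7 and quantified them with Salmon 0.8.2, with correction for GC and positional bias, against rat RefSeq transcripts of the rn6 build. The deposited tables hold estimated counts and TPM for 18314 transcript records, of which 17360 were given a symbol here. Reads that match several records are shared out by Salmon, so counts can be fractional. Depth was 25820299 to 35509074 estimated counts per rat, and intervals and floors cover counting error only.

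Estimated counts were rounded and fitted on all records with edgeR 4.0.16 in R 4.3.3 (filterByExpr, trimmed mean of M-values, quasi-likelihood test, strain as the only term), with Benjamini-Hochberg adjustment over the 13659 records that passed the filter and a threshold of 0.05. Standard errors were obtained from each log2 difference and the root of its F statistic. Levels were compared in TPM, within rats by a sign-flip test with a pseudocount of 0.01 and between strains by two-sided exact permutation tests. The fit across records was tested on simulated data. All 10 members and the ligand genes *Npy*, *Gal*, *Vip* and *Adcyap1* are named, with pathway genes that passed the adjusted threshold and the 3 records most alike (log2 CPM, prior count 2) for the leading gene of each family and *Dpp4*. The members and lists were chosen with earlier results of these data known. The alternatives tried included DESeq2 1.42.0 in 2 forms (a transcript length offset or none), limma 3.58.1 on log2(TPM + 0.1), other scalings and filters, the replicate number as a block, each rat left out in turn, and, added after the data were seen, counts summed per gene, a newer edgeR fit, both replicates 1 left out and the 6 *Adcyap1r1* records summed in TPM. Deviations of same-numbered rats from their strain means were not positively correlated. P-values of strain differences measure the spread between rats of a strain, and those of the sign-flip test the spread over all 8 rats. Promoter windows and symbols came from RefSeq tables of GRCr8, a different build from rn6, and only the windows are given coordinates.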

Additional observations from a re-analysis of the deposited data

Results flagged for a closer look

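Each group of 4 rats was screened for a single value far from the other 3 by Dixon's test. Of 32 groups screened, 4 held such a value, where chance gives about 1 in 20, or 1.6. The normalised count of *Vipr1* was 13.8 in Wistar replicate 2, against 5.55 to 6.65 in the other Wistar rats. The share of *Galr2* in the galanin receptor TPM was 98.9% in Wistar replicate 2, against 99.8% or more in the other Wistar rats. The summed NPY receptor TPM was 56.0 in SHR replicate 3, against 41.2 to 41.9 in the other SHR rats. The summed galanin receptor TPM was 10.1 in SHR replicate 4, against 13.6 to 14.2 in the other SHR rats. The cause of these values was not tested.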

How the results depend on the processing

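The number of records called was 389, and it was 782 in DESeq2 without and 841 with the length offset, 132 with the replicate number as a block, 237 to 454 with 1 rat left out and 1068 with both replicates 1 left out. The count of called members was 0, and it was 1 in both forms of DESeq2 (*Dpp4*), 0 to 2 with 1 rat left out and 2 with both replicates 1 left out (*Adcyap1r1* and *Dpp4*). Deviations of same-numbered rats from their strain means correlated at -0.29 to -0.038. Differently numbered rats were not compared, so whether the numbers mark a shared batch was not tested. The block called 0 members. Log2 fold changes kept their sign for all 8 tested members in every alternative that gave a value, from -1.80 to -0.999 for *Dpp4*, 0.29 to 0.44 for *Adcyap1r1*, 0.44 to 0.74 for *Npy1r*, -1.48 to -1.02 for *Npy2r*, 0.44 to 1.48 for *Vipr1*, -1.49 to -0.51 for *Vipr2*, -0.47 to -0.16 for *Galr2* and -0.14 to -0.01 for *Npy4r*. Leaving out 1 rat put *Vipr1* at 0.53 without SHR replicate 3 (1.09 with all rats) and *Vipr2* at -1.30 without SHR replicate 1 (-0.78). *Npy2r*, *Vipr1* and *Vipr2* could not be tested where every rat needed 10 counts. The log2 difference of *Vipr2* over *Vipr1* was 1.54 to 2.17 with 1 rat left out and passed its threshold only without SHR replicate 3, and that of *Npy2r* over *Vipr2* was 1.29 to 1.84 and passed only without SHR replicate 1. The difference in *Galr2* share, 0.21 percentage points, was -0.0424 to 0.328 with 1 rat left out, and reversed to -0.0424 without Wistar replicate 2. With 1 rat left out, the difference in summed TPM, SHR minus Wistar, was -5.57 to -0.638 for the NPY, -4.37 to -1.48 for the galanin and 3.20 to 7.14 for the VIP and PACAP receptors, and none passed its threshold. The cause of these changes was not tested. At the smallest p of this exact permutation test, 0.0286, 1 family alone has an adjusted p of 0.0857, so it could not pass by itself. Depth limits *Npy5r*, *Galr1*, *Vipr1*, *Vipr2* and *Npy2r*, which rest on few reads.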

Other observations

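The gene of the secretin receptor, a relative of the VIP and PACAP receptors, was more abundant than any of the 10 members, a gene named after its values were seen. *Sctr* ranged from 132.7 to 189.6 TPM over the 8 rats, where the highest value of any member was 47.7 TPM, for *Npy4r* in SHR replicate 3. The log2 fold change was -0.14 (SE 0.111, edgeR's quasi-likelihood test, adjusted p = 0.546), and the strains overlapped.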
